A study of Mus musculus with 25 samples.

Results

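Clones of mouse embryonic stem (ES) cells with a strong β-catenin mutation were compared with clones of intermediate strength, 9 against 3. They make up 12 of the 25 RNA libraries of the series. The 9 high clones carried S37A (clone A10), S37C (G12), S37F (H2 and G1), S37Y (A5), T41A (C1 and E6) or T41I (B9 and A6), and the 3 medium clones carried S45F (C1 and D9) or S45P (G5). Clones were taken by their labelled genotype and sorted by the high and medium categories of the study, which scored each mutation with a reporter of Wnt signaling (the mutational effect score, MES). The study drew the categories from a clustering of these same RNA libraries, so the number of genes that differ between them is not independent of the grouping. Every medium clone was mutated at codon 45 and every high clone at codon 37 or 41, so that category and codon cannot be told apart.

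β-Catenin, encoded by *Ctnnb1*, is the coactivator through which canonical Wnt signals reach TCF and LEF factors on DNA. Without a Wnt signal it is phosphorylated step by step at its amino-terminal end, first by casein kinase 1 at S45 and then by GSK3 at T41, S37 and S33, and the phosphorylated degron is bound by β-TRCP, ubiquitylated and destroyed. Mutations of these residues can stabilize the protein, although the study found some substitutions, such as T41S, to be well tolerated. In ES cells a moderate rise in β-catenin is known to relieve repression by TCF7L1 and to favor the naive pluripotent state. The mutated codons lie in exon 3 of *Ctnnb1* on the forward strand of chr9:120950599-120950652 (GRCm38). The reference coding sequence of codons 31 to 48 is shown because the codon is what separates the groups, with codons 37, 41 and 45 in capitals.
Ctnnb1 codons 31 to 48: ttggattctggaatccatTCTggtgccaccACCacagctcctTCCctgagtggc

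All clones were made from E14IVtg2a (E14), a line that needs no feeder cells and was kept in medium with serum and leukemia inhibitory factor. One *Ctnnb1* allele was first replaced by a puroΔTK selection cassette and then by a repair template with a single missense change, so each line is heterozygous, is 1 expanded colony and gave 1 library. None of the 12 received the GSK3 inhibitor CHIR99021 (0 µM). The only other libraries used are 3 low clones (S45C, T41N and T41S), and 10 of unedited E14 cells, 2 at each of 0, 2.5, 5, 7.5 and 10 µM CHIR99021. The unedited cells went through neither targeting nor cloning.

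RNA was read at transcript 3′ ends and counted as unique molecules. Total counts ran from 751297 to 2025273 over the 12 libraries, and 14007 to 16231 genes were detected. A gene at 0 in a library leaves up to 3 counts open, or 1.48 to 3.99 CPM (counts scaled to the library total), for counting error only. Total counts, detected genes, mitochondrial share and the TMM factor did not pass an exact permutation test over the 220 splits of the clones (two-sided p = 0.2, 0.0636, 0.891 and 0.0682). The share of the most abundant gene averaged 1.04% ± 0.174 (SD, n = 9) in high and 1.39% ± 0.122 (n = 3) in medium clones (exact permutation p = 0.0182, adjusted p = 0.0909 over 5 properties). That gene was *Actb*, or *Rpl8* in S37F H2. Pairs of clones with the same mutation differed by more than sampling noise (chi-square per degree of freedom 1.80 to 3.99). Each clone was counted as 1 sample, although this spread does not show that clones of 1 mutation are independent. A fit with the mutation as a random block put their correlation at 0.203, and its calls are given below.

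Of the markers that define ES cells, all 12 clones expressed *Sox2* (469 to 826 CPM), *Nanog* (278 to 627 CPM) and *Esrrb* (371 to 661 CPM). *Pou5f1* was counted at only 11.9 to 28.8 CPM, and its related copies make that value uncertain. Several libraries stood apart. S45F D9 was raised along chromosome 6, as described with those genes. T41I B9 was near 0 for the Y-linked genes, with 0.689 CPM for both *Ddx3y* and *Eif2s3y*. S37Y A5 and S37A A10 had the highest summed level of primitive endoderm markers among the 12 clones. T41I A6 was the high clone nearest to the medium clones at 196 of the 481 genes that differed, or 40.7% of them. Of the 10082 genes with enough counts to test, 481 (4.77%) passed edgeR's quasi-likelihood test at an adjusted p under 0.05, 209 of them higher and 272 lower in high clones. The call count was 148 to 163 without 1 of the 3 medium clones, 277 without S37A A10, 291 without S37C G12, 504 without T41I B9 and 886 without T41I A6. All 481 kept their direction without any single medium clone, which says little because mostly the same clones had chosen them. A limma-voom fit with the mutation as a random block called 256 genes, 70 higher and 186 lower. The majority turned with DESeq2 (321 higher and 308 lower) and without a filter on low counts (402 higher and 335 lower), so neither direction prevailed in all fits.

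The first question was how far the targets of β-catenin separate the categories. The study named 10 genes that rise with CHIR99021 as its targets, a choice made on the unedited libraries of this series. Of these 10, 4 were higher in high clones by the test (*Axin2*, *Cdx1*, *Tbx3* and *Znrf3*) and none was lower, against 2.07% of all genes tested called higher. The median log2 difference of the 10 was 0.77, beside 0.0027 for all genes tested. The 4 genes were also the 4 whose clone values did not overlap between the groups, a pattern seen in the same direction for 2.51% of all genes tested (3.69% in the other direction and 6.2% in either).

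*Cdx1*, a caudal-type homeobox gene of the posterior embryo, had the largest of these differences. It lies on chr18:61018862-61036199 (GRCm38, reverse strand). Its level was 61.2, 68.8 and 81.6 CPM in the 3 medium clones and 115 to 334 CPM in the high clones, with a median of 258. T41A C1 was the lowest high clone, and the other 8 were at 207 CPM or more. The log2 difference was 1.81 ± 0.23 (SE, as for all log2 values, by edgeR's quasi-likelihood test, Benjamini-Hochberg adjusted p = 0.000496). Untreated unedited cells averaged 28.2 CPM and cells in 10 µM CHIR99021 averaged 299 CPM (n = 2 each).

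*Axin2*, a scaffold of the destruction complex and a feedback inhibitor of the pathway, lies on chr11:108920349-108950783 (GRCm38, forward strand). It was counted at 22.9, 30.1 and 33.3 CPM in medium clones and at 38.9 to 87.4 CPM in high clones (median 63.4). All 5 codon 37 clones were at 63.4 CPM or more and all 4 codon 41 clones at 52.4 CPM or less. The log2 difference between the categories was 1.2 ± 0.25 (edgeR adjusted p = 0.00949). *Znrf3*, a ubiquitin ligase that removes Wnt receptors from the membrane, was at 14.7, 21.3 and 23.8 CPM in medium and 24.0 to 42.7 CPM in high clones (median 35.0). The groups met almost edge to edge, S45F C1 at 23.8 and T41I A6 at 24.0 CPM. Its log2 difference was 0.82 ± 0.21 (edgeR adjusted p = 0.0292), and untreated unedited cells, at 23.7 CPM, lay at the level of the medium clones. With 1 clone left out at a time, *Axin2* lost its call without S45F C1 or S45F D9 (edgeR adjusted p up to 0.0701) and *Znrf3* without any 1 of the 3 medium clones (up to 0.178).

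*Tbx3*, a T-box factor that is both a Wnt target and a naive pluripotency gene, was at 78.0, 89.1 and 108 CPM in medium and at 127 to 269 CPM in high clones (median 179). No clone overlapped, and the log2 difference was 1.12 ± 0.19 (edgeR adjusted p = 0.00315). Here the medium clones were already above the 28.7 to 50.4 CPM of the 3 low clones and the 50 CPM of untreated unedited cells. At *Cdx1* the low clones, at 32.3 to 35.6 CPM, also lay below the medium clones. This order did not hold at every target. *Axin2* was at 22.6, 38.3 and 42.4 CPM in S45C D3, T41N D3 and T41S H8, beside 22.9 to 33.3 CPM in medium clones. *Sp5* was at 52.8 to 80.2 CPM in low and 36.4 to 64.2 CPM in medium clones.

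The remaining 6 targets did not pass the test. *Nkd1*, a feedback inhibitor, had the largest difference of all (log2 1.86 ± 0.66, edgeR adjusted p = 0.109), but at 0.628 to 3.67 CPM in medium and 1.55 to 11.2 CPM in high clones it rested on few counts, and untreated unedited cells, at 9.4 CPM, lay above the means of both categories (1.88 and 6.51 CPM). *Sp5*, a zinc-finger factor induced by Wnt, differed by 0.73 ± 0.28 (adjusted p = 0.14) and *Bmp4*, a secreted BMP ligand, by 0.68 ± 0.23 (adjusted p = 0.0923). *Etv4*, an ETS factor also downstream of FGF, differed by 0.21 ± 0.20 (adjusted p = 0.59), and *Gbx2*, a homeobox gene, by 0.12 ± 0.17 (adjusted p = 0.716). *Gbx2* overlaps *D130058E05Rik*, and reads of the pair cannot be told apart. *Notum*, a secreted enzyme that inactivates Wnt ligands, was at 43.3 to 73.2 CPM in medium and 26.8 to 72.1 CPM in high clones, a log2 difference of −0.36 ± 0.27 (adjusted p = 0.485). All of these rose with CHIR99021 in unedited cells, and the last 3 were in both categories at several times the untreated mean, for example 23.2 CPM for *Etv4* against medians of 112 in medium and 128 in high clones. *Ctnnb1* itself was at 452 to 528 CPM in medium and 433 to 527 CPM in high clones (log2 difference 0.02 ± 0.09, edgeR adjusted p = 0.936).

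**Figure D1:**
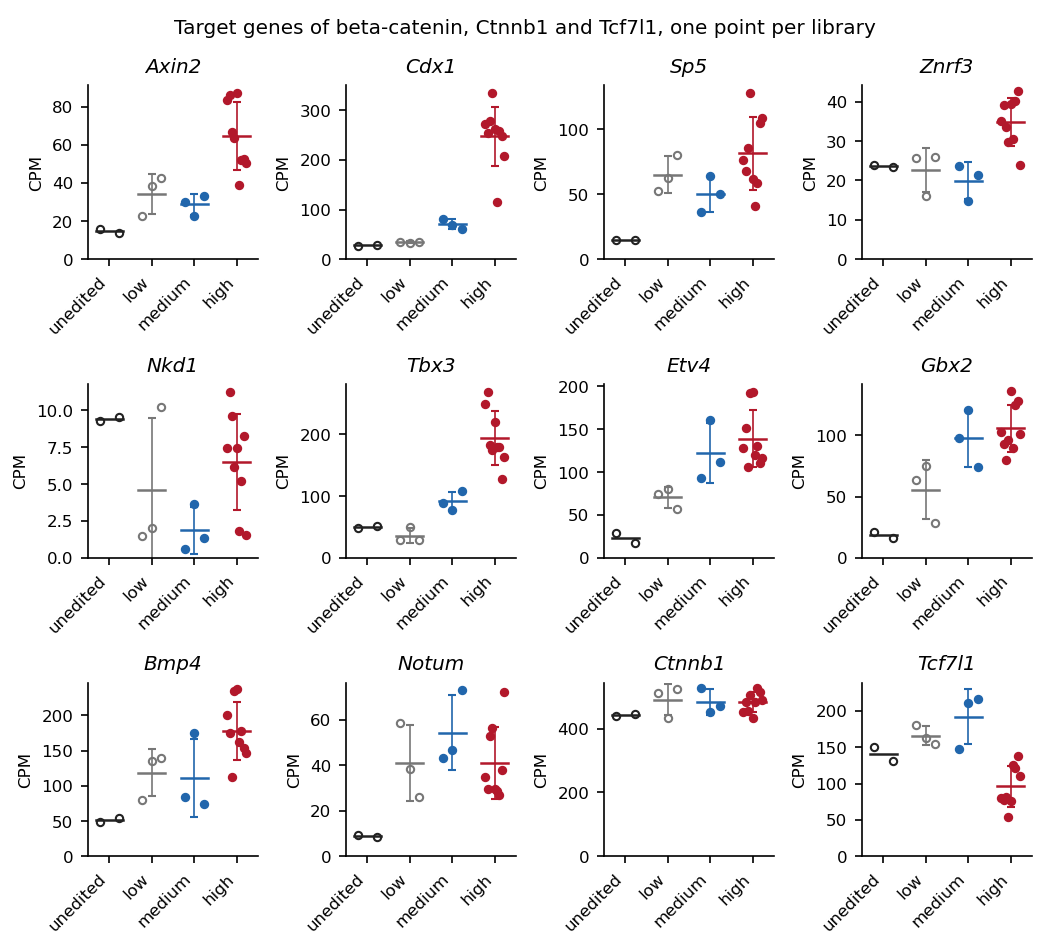
Level in CPM (y axis, from 0) of the 10 targets, Ctnnb1 and Tcf7l1 in untreated unedited cells, low, medium and high clones (x axis); each point is a library, the horizontal line the mean and the bar the SD (not drawn for the 2 unedited libraries). Axin2, Cdx1, Znrf3 and Tbx3 show no overlap between medium and high clones, whereas Etv4, Gbx2 and Notum overlap throughout.

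Other parts of the pathway were read as gene lists, beside 4.77% of all genes tested that were called in either direction. With counts this small, nothing is read from the difference. Of 7 further Wnt target genes in the fit, 1 passed the test. It was *Fzd7*, a Wnt receptor, and it was lower in high clones (28.4 to 49.6 CPM in medium, 11.2 to 27.6 in high, log2 difference −1.09 ± 0.25, edgeR adjusted p = 0.0188, and up to 0.156 without S45F C1 or S45P G5). *Lef1*, the TCF family member most often induced by Wnt, was at 5.65 to 14.7 and 10.2 to 31 CPM (log2 difference 0.97, adjusted p = 0.124). None of 9 Wnt ligands and receptors passed (*Fzd5*, the most abundant, differed by 0.41 ± 0.19 on the log2 scale, adjusted p = 0.207). Of 11 genes of the destruction complex and TCF factors, 1 was lower, *Tcf7l1*, described with the chromosome 6 genes.

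The letters CTTTGAT or CTTTGTT, a core of the TCF motif, neither of which contains the other, were searched on both strands of the RefSeq promoters (GRCm38.p6, 250 bases before to 50 after the first listed start). They were present in 5.95% of 7812 promoters of genes tested, 3.52% of 142 called higher and 6.05% of 215 called lower. Of 59 named genes with a promoter, 4 held them, namely *Sp5*, *Fzd7*, *Foxp1* and *Efs*. Named genes on the chromosome of *Cdx1* were left out of this count, so it says nothing about the promoter of *Cdx1*. The 59 are part of 82 named genes, and *Tbx3*, *Znrf3*, *Etv4* and *Notum* were not among them either. Of the targets called higher, only *Axin2* was therefore searched. The promoters of *Sp5*, with 2 matches, and *Fzd7*, the Wnt gene that was lower, are shown with the matches in capitals, 5′ to 3′ on the forward strand, at chr2:70474673-70474972 and chr1:59481897-59482196.
Sp5: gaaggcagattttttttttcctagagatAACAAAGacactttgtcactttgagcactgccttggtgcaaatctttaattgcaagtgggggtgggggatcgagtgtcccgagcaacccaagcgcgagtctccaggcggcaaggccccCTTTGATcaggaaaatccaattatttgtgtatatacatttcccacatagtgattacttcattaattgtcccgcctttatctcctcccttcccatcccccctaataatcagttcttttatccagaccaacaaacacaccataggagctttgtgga
Fzd7: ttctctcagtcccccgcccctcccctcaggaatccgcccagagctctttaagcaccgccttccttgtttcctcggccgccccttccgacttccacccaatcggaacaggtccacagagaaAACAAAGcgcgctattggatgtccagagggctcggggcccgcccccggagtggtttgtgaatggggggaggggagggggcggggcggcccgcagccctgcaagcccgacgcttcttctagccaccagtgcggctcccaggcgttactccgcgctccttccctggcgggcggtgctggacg

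Beyond the targets, the genes with the largest differences outside chromosome 6 were examined in each direction, among protein-coding genes of at least 20 CPM whose clones did not overlap. The values that chose them are given as a description. Higher in high clones were 99 such genes. *Sccpdh*, a protein related to saccharopine dehydrogenase, was at 33.3, 36.7 and 41.4 CPM in medium clones and 103 to 243 CPM in high clones (median 112), with S37Y A5 far above the rest (log2 difference 1.83 ± 0.25, edgeR adjusted p = 0.000841). *Ctsc*, a lysosomal protease, was at 7.99, 20.1 and 20.2 CPM against 40.0 to 87.4 (log2 1.86 ± 0.30, adjusted p = 0.00244). *Ttc28*, a repeat protein of the mitotic spindle, was at 33.9, 35.1 and 37.3 CPM against 65.9 to 130 (log2 1.45 ± 0.21, adjusted p = 0.00129). Untreated unedited cells held 31.2, 19.1 and 40.1 CPM of these 3 genes, near the medium clones, and all 3 rose with CHIR99021. In the low clones S45C D3, T41N D3 and T41S H8, *Sccpdh* was at 39.2, 48.4 and 48 CPM. *Ctsc* was there at 21.1, 18.2 and 45.2 CPM and *Ttc28* at 22.6, 74.7 and 93.8 CPM. T41S H8 thus lay within the range of the high clones at *Ctsc* and *Ttc28*, and T41N D3 at *Ttc28*.

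Others moved in the clones without a call along the dose. *Cox7a1*, a subunit of cytochrome c oxidase, was at 18.3 to 28.2 CPM in medium and 31.8 to 84.7 CPM in high clones (log2 1.48 ± 0.26, edgeR adjusted p = 0.00385), but untreated unedited cells held 80.3 CPM, as much as the high clones. *Col13a1*, a transmembrane collagen, was at 3.99 to 8.79 and 11.6 to 44.0 CPM, beside 18 CPM in unedited cells. *Eif2ak2*, the double-stranded RNA sensor PKR, was at 9.41 to 16.0 and 20.9 to 42.4 CPM. *Slc25a20*, the mitochondrial carnitine carrier, *Tdrp*, *Calb2*, a calcium-binding protein, and *Tex19.1*, a germline gene that restrains retrotransposons, had log2 differences of 1.21 to 1.80. *Arhgef26*, a RhoG exchange factor too low to be tested along the dose, differed by 1.87 ± 0.43. *Dmgdh*, a mitochondrial enzyme of choline breakdown, and *Ly6a*, which encodes the surface antigen Sca-1, differed by 2.02 ± 0.36 and 2.3 ± 0.66 and also rose with dose. *Ly6a* and *Tex19.1* belong to families of similar copies, so their counts are uncertain. *Ly6a* lost its call without any 1 of 7 clones (edgeR adjusted p up to 0.221). *Arhgef26*, *Calb2*, *Slc25a20* and *Tex19.1* lost it without any 1 of the 3 medium clones (up to 0.0903, 0.11, 0.117 and 0.0805), *Tdrp* without S45F C1 or S45F D9 (up to 0.109) and *Eif2ak2* without S45F C1 (0.0621), whereas *Cox7a1*, *Col13a1* and *Dmgdh* kept it without any single clone.

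Lower in high clones were 149 such genes. *Klhl13*, a substrate adaptor of the cullin 3 ubiquitin ligase, lies on chrX:23219271-23365082 (GRCm38, reverse strand) and had the smallest p of all genes. It was at 144, 228 and 409 CPM in medium clones and 31.7 to 88.4 CPM in high clones (median 48.8), with T41I A6 the highest of these. The log2 difference was −2.24 ± 0.25 (edgeR adjusted p = 0.000205). Untreated unedited cells held 142 CPM, at the lowest medium clone.

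*Enpp3*, an ectonucleotidase, was at 20, 20.1 and 28.4 CPM in medium clones and 3.07 to 7.43 CPM in high clones (log2 −2.09 ± 0.27, edgeR adjusted p = 0.000496). *Pou3f1*, a POU factor of the primed epiblast and of neural cells, was at 25.7, 35.8 and 83.9 CPM against 5.6 to 16.3 (log2 −1.95 ± 0.30, adjusted p = 0.00129). *Car2*, a carbonic anhydrase, was at 85.3, 156 and 197 CPM against 34.2 to 76.8 (log2 −1.52 ± 0.23, adjusted p = 0.00129). All 3 also fell along the CHIR99021 dose, and their levels in high clones lay near those at 10 µM, 5.90 CPM for *Enpp3*, 12.2 for *Pou3f1* and 45.3 for *Car2*. The first of the 2 libraries at 10 µM held only 306157 counts. A gene at 0 there leaves up to 9.80 CPM open, which is above the *Enpp3* mean.

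Other genes of this group belong to signaling and cell structure. *Ptch1*, the Hedgehog receptor and a Hedgehog target, was at 46.8 to 75.9 CPM in medium and 11.2 to 34.9 CPM in high clones (log2 −1.45 ± 0.25, edgeR adjusted p = 0.00322). *Fgf17*, a secreted growth factor, was at 47.1 to 54.6 and 8.19 to 26.4 CPM (log2 −1.61 ± 0.24, adjusted p = 0.00129). *Lrp2*, the endocytic receptor megalin, *Grhl2*, a grainyhead factor of epithelia, *Kcnk1*, a potassium channel, *Efs*, an adaptor of Src kinases, and *Rassf3*, of the RASSF family, had log2 differences of −1.74 to −1.44. *Ina*, an intermediate filament of neurons, *Crmp1*, a neuronal protein of axon guidance, and *Slc28a1*, a nucleoside transporter, differed by −1.64, −2.05 and −1.78, and each overlaps another expressed gene (*Nt5c2*, *Evc* and *Ndufs6b*). Of the genes lower outside chromosome 6 by this rule, *Efs* and *Lrp2* lost their call without S45P G5 (edgeR adjusted p = 0.055 and 0.0749).

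**Figure D2:**
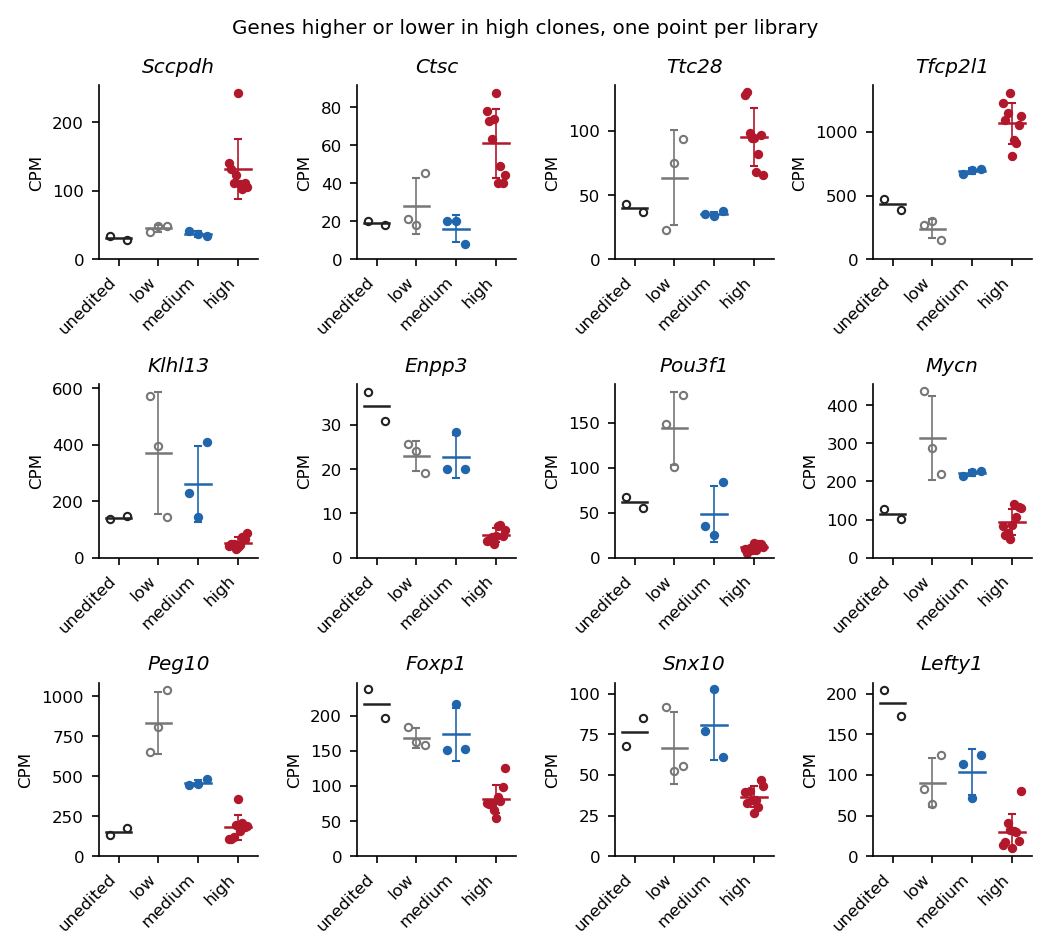
Level in CPM (y axis, from 0) of 12 named genes in untreated unedited cells, low, medium and high clones (x axis); each point is a library, the line the mean and the bar the SD (not drawn for the 2 unedited libraries). Medium and high clones are separate in every panel but Lefty1, where T41I A6 at 79.9 CPM lies above S45F D9 at 71.6 CPM.

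Chromosome 6 was counted apart because S45F D9 had more RNA from it. Over the 320 chromosome 6 genes that averaged 20 CPM or more, the median log2 ratio of S45F D9 to the median of the 12 clones was 0.44, against −0.045 to 0.011 in the other 11 clones. All 8 windows of 20 Mb were raised in S45F D9, by 0.35 to 0.52. The other S45F clone, C1, was at −0.005, and among the other autosomes and the X chromosome no clone shifted by more than 0.11 (chromosome 15 of S37C G12). Of 470 chromosome 6 genes tested, 32 (6.81%) were called, 8 higher and 24 lower in high clones, whereas 449 of 9612 other genes (4.67%) were called, 201 higher and 248 lower. Without S45F D9, 5 of 482 chromosome 6 genes (1.04%) were called, 1 higher and 4 lower, beside 143 of 9872 other genes (1.45%). The median log2 difference of all chromosome 6 genes was −0.14.

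Among the chromosome 6 genes named, 3 kept their call without S45F D9. *Peg10*, a retrotransposon-derived imprinted gene, was at 443, 450 and 482 CPM in medium clones, with S45F D9 between the other two, and at 105 to 355 CPM in high clones (median 185). Its log2 difference was −1.31 ± 0.24 (edgeR adjusted p = 0.00442), and −1.33 without S45F D9 (adjusted p = 0.023). *Snx10*, a sorting nexin of endosomes, was at 61.2, 77.2 and 103 CPM against 26.7 to 46.9 (log2 −1.12 ± 0.17, edgeR adjusted p = 0.00129, and −0.91 without S45F D9, adjusted p = 0.0237). *Foxp1*, a forkhead factor, was at 151, 153 and 217 CPM against 54.8 to 125 (log2 −1.06 ± 0.18, adjusted p = 0.00282, and −0.87 without S45F D9, adjusted p = 0.0395).

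The other chromosome 6 genes named lost their call without S45F D9, and all but *Mest* lost it without other clones too. *Mest*, an imprinted gene of the hydrolase fold family that overlaps *Copg2*, was at 270 CPM in S45F D9 but 85.4 and 121 CPM in the other medium clones, beside 26.4 to 84.6 CPM in high clones (log2 −1.53 ± 0.32, edgeR adjusted p = 0.00981, and −0.89 without it, adjusted p = 0.21). *Tcf7l1*, the main TCF repressor of ES cells, was at 148, 211 and 217 CPM against 54.2 to 138 (log2 −0.96 ± 0.20, adjusted p = 0.012, and −0.87 without it, adjusted p = 0.0837). *Dppa3*, which protects methylation in the early embryo, and *Gdf3*, a ligand of the Nodal pathway, differed by −1.48 and −0.70 on the log2 scale (edgeR adjusted p = 0.0402 and 0.0226), and by −1.26 and −0.45 without it (0.221 and 0.245). *Anxa4*, an annexin, was the 1 gene higher by the rule for named genes (18.6 to 26.4 against 28.9 to 53.3 CPM, log2 0.81 ± 0.21, adjusted p = 0.0361, and 0.84 without it, adjusted p = 0.117). *Tcf7l1* and *Gdf3* also lost their calls without S45P G5, *Dppa3* without any 1 of 7 clones and *Anxa4* without any 1 of 6, S45F D9 among them.

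**Figure D3:**
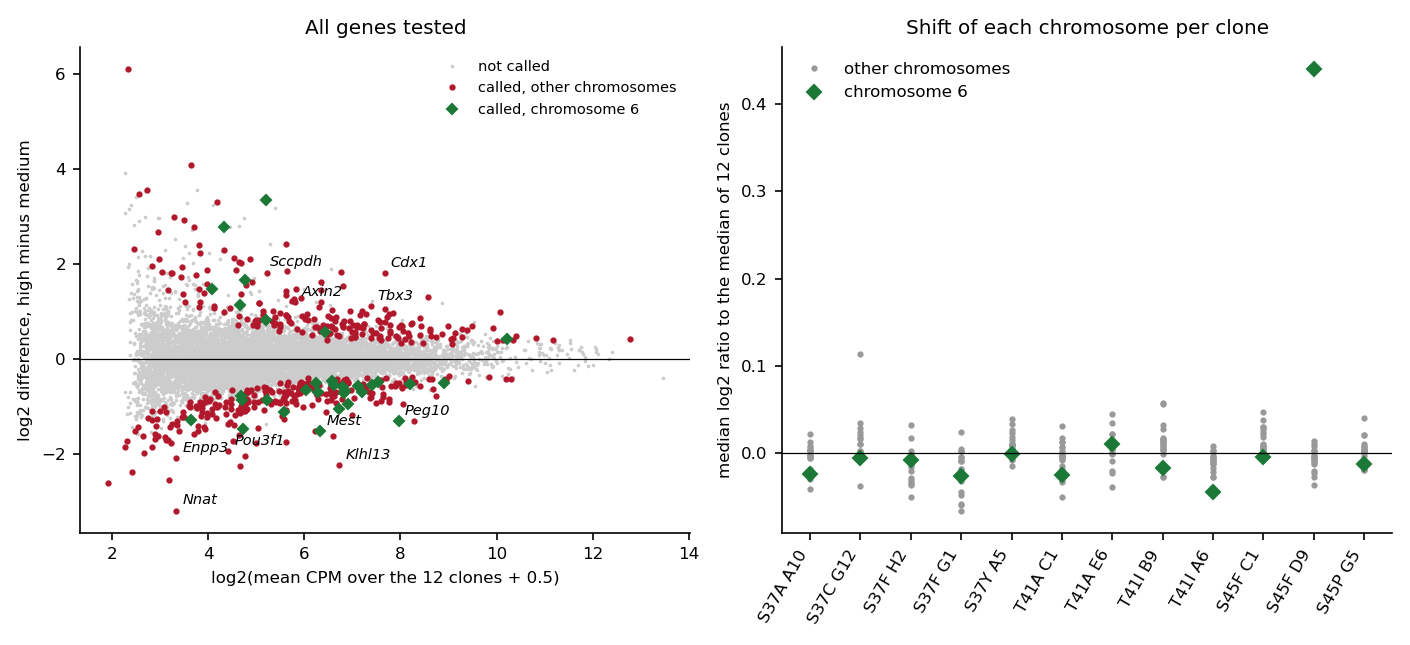
Left, the log2 difference of high minus medium clones (y axis) for all genes tested against their mean level (x axis, log2 scale), with called genes in red and those of chromosome 6 as green diamonds. Right, the median log2 ratio of each chromosome to the median of the 12 clones (y axis) for each clone (x axis), where chromosome 6 of S45F D9 stands at 0.44 and all other points, for chromosomes 1 to 19 and X, lie between −0.07 and 0.11.

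Gene lists were then read one by one. They were written with earlier results of these data known, so their counts are descriptions. Of 227 list genes in the fit, 39 (17.2%) were called, 15 higher and 24 lower, beside 4.77% of all genes tested (2.07% higher and 2.7% lower), and since the lists were chosen with results known, nothing is read from the difference. The same shares of all genes stand beside each list count that follows. Of 12 naive pluripotency genes, 3 were higher, *Tbx3*, *Klf4* and *Tfcp2l1*, and 1 was lower, *Dppa3*, beside 2.07% and 2.7% of all genes tested. *Tfcp2l1*, a factor of the naive network, was at 667, 703 and 707 CPM in medium and 807 to 1306 CPM in high clones (log2 0.65 ± 0.13, edgeR adjusted p = 0.00747). *Klf4*, a Krüppel-like factor induced by LIF, was at 419, 479 and 600 CPM and 519 to 931 CPM, with T41I A6 at 519 CPM below S45F D9 at 600 CPM (log2 0.70 ± 0.15, adjusted p = 0.0136). *Nanog*, *Esrrb* and *Klf2* differed by 0.07, 0.19 and −0.07 on the log2 scale and did not pass. Of 10 core pluripotency genes 1 was lower, *Utf1* (log2 −0.42 ± 0.11, edgeR adjusted p = 0.0413). Of 7 primed genes, 2 were lower, *Pou3f1* and *Dnmt3b*, a DNA methyltransferase of the epiblast (196 to 371 CPM in medium, 98.9 to 217 in high clones, log2 −0.92 ± 0.20, adjusted p = 0.0116). *Tfcp2l1* lost its call without S45F C1 (edgeR adjusted p = 0.0526), *Klf4* without S45F C1 or S45P G5 (up to 0.0894), *Dnmt3b* without S45F D9 or S45P G5 (up to 0.108) and *Utf1* without any 1 of 7 clones (up to 0.202).

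In the Nodal list, 3 of 9 genes were lower and 1 higher, beside 2.7% and 2.07% of all genes tested. *Lefty1*, a secreted Nodal inhibitor, was at 71.6, 114 and 125 CPM in medium and 10.4 to 79.9 CPM in high clones (log2 −1.75 ± 0.36, edgeR adjusted p = 0.00981), *Skil*, a SMAD corepressor, at 184 to 227 and 113 to 163 CPM (log2 −0.63 ± 0.11, adjusted p = 0.00385). *Smad7*, an inhibitory SMAD, was higher (112 to 157 and 161 to 391 CPM, log2 0.97 ± 0.24, adjusted p = 0.0262). None of 9 genes of BMP signaling passed the test, 1 of 10 of the FGF and ERK response was higher (*Spry2*, a feedback inhibitor, log2 0.54 ± 0.16, adjusted p = 0.0498), and of 10 LIF and STAT3 genes only *Klf4* passed. *Skil* kept its call without any single clone, *Lefty1* lost it without S45F C1 or S45P G5 (edgeR adjusted p up to 0.0621), *Smad7* without any 1 of the 3 medium clones (up to 0.117) and *Spry2* without any 1 of 9 clones (up to 0.209).

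Among the lists of differentiated cells, 3 neural genes were in the fit and 2 were lower in high clones, *Tubb3*, a neuronal tubulin (61.5 to 112 and 15.6 to 77.6 CPM, log2 −1.26 ± 0.33, edgeR adjusted p = 0.0348), and *Map2*, a neuronal microtubule protein (10.0 to 22 and 0.988 to 9.21 CPM). The summed neural list was 103 to 142 CPM in medium and 23.1 to 97.0 CPM in high clones, of which the T41I clones had the most. Of 3 primitive streak genes in the fit, *Eomes*, a T-box factor, was higher (2.75 to 5.32 and 7.43 to 28.6 CPM, log2 2.24 ± 0.47, adjusted p = 0.00981). *T*, which marks the primitive streak, was at 10.0 to 17.3 and 15.6 to 58.3 CPM (log2 1.41, adjusted p = 0.0525). The summed list was 94.5 to 133 CPM in the 5 codon 37 clones, 31.8 to 55.1 CPM in the 4 codon 41 clones and 20.7 to 43.9 CPM in medium clones. Of 5 *Cdx*, *Hox* and retinoic acid genes, only *Cdx1* passed. *Eomes* lost its call without S45F C1 or S45F D9 (edgeR adjusted p up to 0.0736), *Map2* without any 1 of 5 clones (up to 0.251) and *Tubb3* without any 1 of 7 (up to 0.163).

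Of 11 primitive endoderm genes in the fit none was called, although their median log2 difference was 1.76. The 12 markers summed to 541 to 2756 CPM in high and 621 to 831 CPM in medium clones, with S37Y A5 at 2756 and S37A A10 at 1909. In the low clones S45C D3, T41N D3 and T41S H8 the sum was 1439, 1844 and 3270 CPM. Of this, *Sparc*, a matrix gene, alone gave 1101, 1404 and 2600 CPM. *Gata6*, a defining factor of this lineage, was at 3.10 to 85.4 CPM in high clones and at 0, 1.26 and 5.50 in medium clones, *Sox17* was at 0 in 2 medium clones, and *Pdgfra* was at 0 in all 3. Without S37A A10 and S37Y A5 together, 196 genes were called between the categories, 79 higher and 117 lower, a setting added after the data were seen. The part of these markers in the other differences was not tested. Of 6 trophoblast genes, *Eomes* was higher and *Tfap2c* lower (log2 −1.19 ± 0.25, edgeR adjusted p = 0.0107, and 0.0626 without S45F C1). The 1 fibroblast gene in the fit, *Vim*, was at 116 to 293 and 87.1 to 155 CPM (adjusted p = 0.14), and of 10 fibroblast markers the sum was 104 to 168 CPM in high and 130 to 318 CPM in medium clones. In bulk RNA, fewer cells of a type and less RNA per cell cannot be told apart.

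Of 10 germ line and 2-cell stage genes, *Dazl*, an RNA-binding protein of germ cells, was higher (2.66 to 11.3 and 6.98 to 79.5 CPM, log2 2.11 ± 0.59, edgeR adjusted p = 0.0452), and *Dppa3* and *Prdm1* were lower, the latter a repressor that specifies germ cells (10.0 to 33.3 and 2.47 to 9.61 CPM, adjusted p = 0.0133). *Dazl* lost its call without any 1 of 8 clones and *Prdm1* without S45P G5 (edgeR adjusted p up to 0.157 and 0.124). The multi-copy *Zscan4c* was at 0.917 to 8.79 CPM in medium and 0 to 54.3 CPM in high clones, and it did not pass (adjusted p = 0.116). Of 3 Y-linked genes none was called. Their sum was 3.44 CPM in T41I B9 and 63.1 to 226 CPM in the other high clones, beside 100 to 170 CPM in medium clones.

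The imprinted genes that were called were all lower. Of 14 in the fit, 5 were lower in high clones and none was higher, beside 2.7% of all genes called lower. They were *Peg10* and *Mest* of chromosome 6, *Peg3*, *Snrpn* and *Nnat*. *Snrpn*, a splicing protein of the Prader-Willi region, was at 144, 149 and 174 CPM in medium and 90.8 to 127 CPM in high clones (log2 −0.49 ± 0.12, edgeR adjusted p = 0.0208). *Peg3*, a zinc-finger gene, was at 28.4, 60.9 and 101 CPM and 24.6 to 48.2 CPM (log2 −0.95 ± 0.26, adjusted p = 0.04). *Nnat*, which overlaps *Blcap*, was at 35.8 CPM in S45F C1 and 49.2 CPM in S45P G5 but 2.75 CPM in S45F D9, beside 0 to 8.18 CPM in high clones (log2 −3.21 ± 0.57, adjusted p = 0.00397). The 17 genes summed to 1758 to 2268 CPM in medium and 1017 to 1403 CPM in high clones, without overlap. The same sum was 1336 and 1210 CPM in untreated unedited cells, within the range of the high clones. In the low clones S45C D3, T41N D3 and T41S H8 it was 2064, 2651 and 2740 CPM. It includes *Peg10* and *Mest* of chromosome 6, which was raised in S45F D9. *Snrpn* lost its call without S45F D9 or S45P G5 (edgeR adjusted p up to 0.114) and *Peg3* without any 1 of 7 clones, with a log2 difference of −0.51 without S45P G5 (0.303). *Nnat* kept it in the 11 of these fits that held it.

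Of 7 enzymes of DNA methylation, *Dnmt3b* and *Tet1* were lower and *Tet2* was higher in high clones, beside 2.7% and 2.07% of all genes tested. *Tet1* and *Tet2* both oxidize methylcytosine, and they moved in opposite directions (*Tet1* 246 to 358 and 149 to 226 CPM, log2 −0.57 ± 0.14, edgeR adjusted p = 0.0259, *Tet2* 128 to 143 and 145 to 314 CPM, log2 0.77 ± 0.19, adjusted p = 0.0265). Of 10 genes of G1 control, *Ccnd3*, a D-type cyclin, and *Cdkn1a*, the CDK inhibitor p21, were higher and *Mycn* was lower. *Cdkn1a* was at 197, 221 and 225 CPM in medium and 306 to 451 CPM in high clones (log2 0.86 ± 0.13, adjusted p = 0.00129). The low clones S45C D3, T41N D3 and T41S H8 held 201, 363 and 465 CPM of it, and untreated unedited cells 291 and 298 CPM. Its level was thus not high in the high clones alone. *Mycn*, a Myc factor, was at 213, 224 and 228 CPM and 50.1 to 140 CPM (log2 −1.19 ± 0.22, adjusted p = 0.0052). Of 10 genes of the p53 response, *Bbc3* and *Zmat3* were lower while *Cdkn1a* was higher. *Cdkn1a* and *Mycn* kept their calls without any single clone, *Ccnd3* lost it without S45F D9 (edgeR adjusted p = 0.0635), *Tet1* without S45F D9 or S45P G5 (up to 0.215), *Tet2* without any 1 of the 3 medium clones (up to 0.124), and *Bbc3* and *Zmat3* without any 1 of 6 clones (up to 0.139 and 0.137).

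Tropomyosins *Tpm1* (217 to 445 and 142 to 219 CPM, log2 −0.91 ± 0.16, edgeR adjusted p = 0.00397) and *Tpm2* were the 2 of 9 contractile genes that were lower, beside 2.7% of all genes tested. Of 14 genes of cholesterol and fatty acid synthesis, *Insig1* and *Fdft1* were higher, with log2 differences of 0.53 and 0.70 (adjusted p = 0.0494 and 0.0384). These calls were lost without any 1 of 10 and 7 clones (edgeR adjusted p up to 0.215 and 0.207), that of *Tpm2* without S37A A10, S45F C1 or S45P G5 (up to 0.169), and that of *Tpm1* was kept. *Ccnd3* overlaps *Bysl* and *Fdft1* overlaps *Ctsb*. No call was made among 9 genes of cadherins and junctions, 14 of hypoxia and glycolysis, or 12 of the ATF4 response. Their most abundant members, *Cdh1*, *Ldha* and *Asns*, differed by 0.11, 0.03 and 0.43 on the log2 scale (edgeR adjusted p = 0.638, 0.938 and 0.101).

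**Figure D4:**
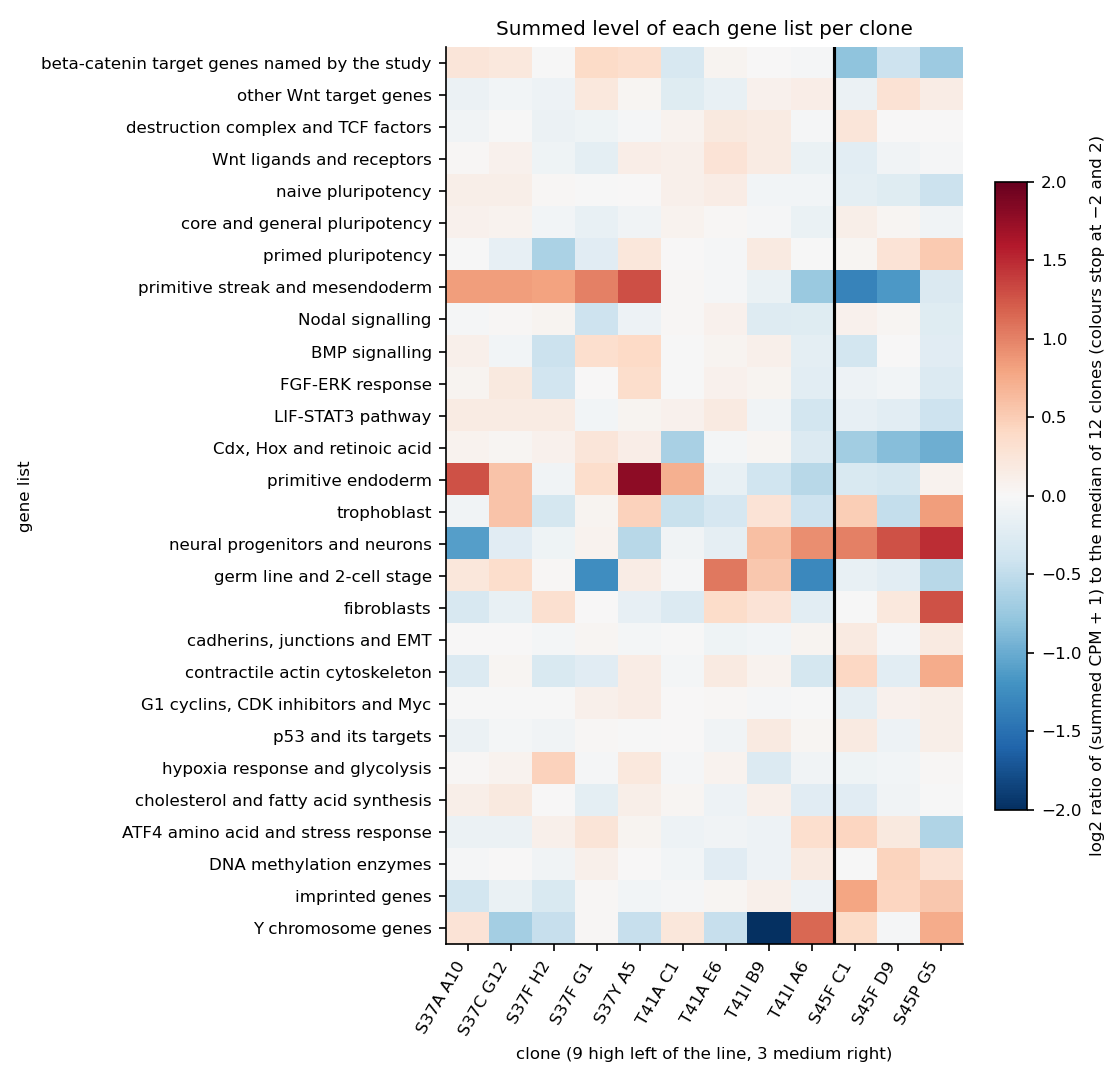
Summed level of each gene list (y axis) in each clone (x axis, 9 high left of the line and 3 medium right) as the log2 ratio of the summed CPM + 1 to the median of the 12 clones, with colours stopping at −2 and 2. The imprinted and neural rows are highest in the 3 medium clones, the primitive endoderm row is highest in S37A A10 and S37Y A5, and the Y chromosome row is lowest in T41I B9.

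Because unedited cells share no library with the clones, the response to CHIR99021 gave a separate readout for the genes that differed. Along the dose, 1341 of 10674 genes (12.6%) passed the test, 610 (5.71%) rising and 731 (6.85%) falling. Of 191 genes higher in high clones that were in both fits, 47 (24.6%) rose and 8 (4.19%) fell with dose, whereas 5.4% of all 9768 shared genes rose. Of 266 genes lower in high clones, 92 (34.6%) fell and 12 (4.51%) rose, beside 6.98% of all shared genes that fell. The overlaps are 8.92% of the rising and 13.5% of the falling genes. Named genes that moved the same way were *Cdx1* (log2 change 0.30 ± 0.03 per µM), *Axin2* (0.28 ± 0.03), *Ly6a* (0.22) and *Ctsc* (0.19) upward and *Enpp3* (−0.36), *Lefty1* (−0.33), *Lrp2* (−0.31) and *Pou3f1* (−0.27) downward. *Cdx1* and *Axin2* are among the targets that the study chose for rising with dose in these same libraries. Their rise was therefore set in advance, and they also count among the 47 genes.

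A few named genes went the other way. *Peg10*, lower in high clones, rose with dose (log2 change 0.15 per µM), from a mean of 153 CPM in untreated cells to 466 CPM at 10 µM. *Tpm1*, also lower, rose by 0.07 per µM. *Ccnd3*, *Tet2* and *Insig1*, higher in high clones, fell by 0.08, 0.06 and 0.05 per µM. *Klhl13*, *Rassf3*, *Grhl2* and *Efs*, among the genes most reduced in high clones, were not called along the dose (edgeR adjusted p = 0.0675, 0.964, 0.401 and 0.374).

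**Figure D5:**
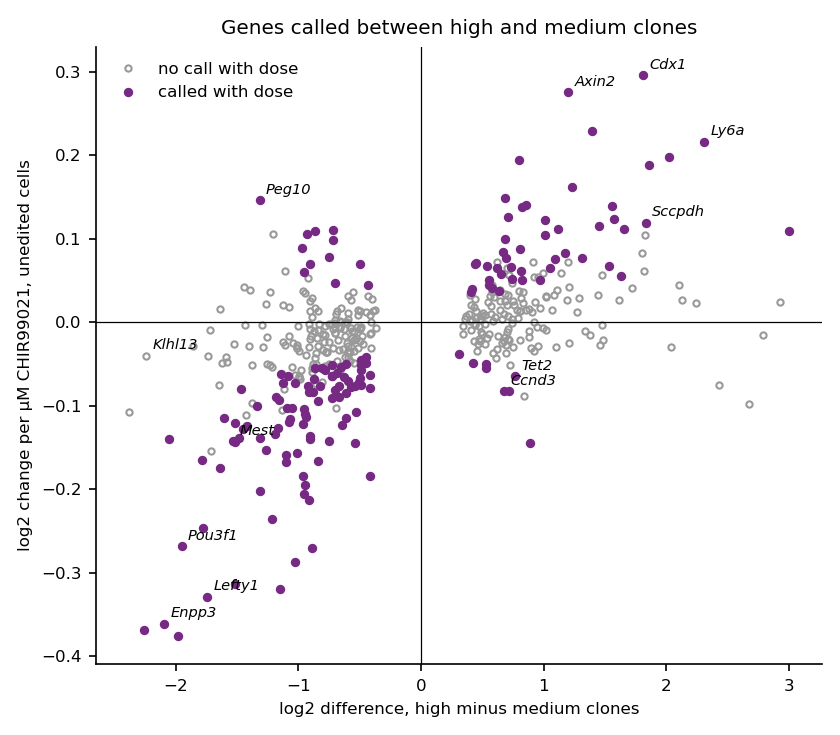
Log2 difference of high minus medium clones (x axis) against the log2 change per µM CHIR99021 in unedited cells (y axis) for genes called between the categories, filled where the dose was also called. Most filled points lie in the upper right and lower left, and Peg10, Ccnd3 and Tet2 lie in the remaining corners.

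The 9 high clones also varied among themselves. With only the 5 codon 37 clones against the medium clones, 648 genes were called, 328 higher and 320 lower, and with only the 4 codon 41 clones 67 were called, 37 higher and 30 lower. Of the 481 genes, 395 were called in the former and 59 in the latter. A fit with codons 37 and 41 as separate groups, added after the data were seen, called 10 of 10082 genes between them, 2 higher and 8 lower at codon 37. Among the 8 were 3 named genes. *Mycn* was at 50.1 to 85.9 CPM in codon 37 and 106 to 140 CPM in codon 41 clones (log2 difference −0.87 ± 0.14, edgeR adjusted p = 0.0294). *Tcf7l1* was at 54.2 to 81.7 and 111 to 138 CPM (log2 −0.75 ± 0.14, adjusted p = 0.0474), and *Dppa3* at 2.05 to 13.4 and 21.6 to 44.1 CPM (log2 −1.66 ± 0.31, adjusted p = 0.0474). At all 3 genes the codon 41 clones lay between the codon 37 clones and most or all of the codon 45 clones.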

How the data were processed

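mcSCRB-seq, which counts molecules at transcript 3′ ends in bulk RNA, gave 25 libraries, of which the 9 high and 3 medium clones were compared. The deposited values are raw counts of molecules per gene, made by the authors with Cutadapt, UMI-tools, SortMeRNA, RNA STAR on mm10, Picard and featureCounts 2.0.1 (per the submitters' processing notes and the study's methods), without normalization. The annotation release and strand setting of the counting are not given in the sources used here, so overlapping genes are named as uncertain. Symbols and positions came from GENCODE M21 (GRCm38), in which 48058 of 48440 gene IDs were found.

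The members and all gene lists were chosen with earlier results of these data known, and the categories rest on the study's clustering of the same libraries. CPM were computed from total counts. The 12 clones were fitted in edgeR 4.0.16 (R 4.3.3, TMM factors, genes kept by filterByExpr at a count minimum of 10, quasi-likelihood test, Benjamini-Hochberg adjustment over all 10082 genes, false discovery rate 0.05), and the 10 libraries of unedited cells with dose in µM as a linear term. The biological coefficient of variation was 0.153 in clones. SE is the log2 value divided by the root of F. Clones of 1 category carry different mutations, so the spread between them includes that difference. Groups do not overlap where every clone of one lies above every clone of the other. Chromosome shifts are medians of log2(CPM + 1) against the median clone.

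Named are the 10 targets and *Ctnnb1*, per direction the 14 largest log2 differences among called protein-coding genes of at least 20 CPM in the higher group, without overlap and off chromosome 6, the first 5 per direction on chromosome 6 by the same rule (1 qualified upward), called members of 28 lists (297 genes), and for each list without a call its most abundant member. Other list members named in the text were chosen after their values were seen. Alternatives were RLE, DESeq2 1.42.0, no filter, all 15 clones, counts summed per mutation, limma 3.58.1 voom with a random block, thinned counts, chromosome 6 left out, 1 codon only and each library left out. On simulated counts for the comparison of 10082 genes edgeR recovered 73% of 100 genes changed 2-fold and 92% of 100 changed 4-fold, with 7.82% false calls, and for the dose with 10674 genes 58% and 90%. Promoters came from RefSeq (GRCm38.p6).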

Additional observations from a re-analysis of the deposited data

Results flagged for a closer look

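Within the 9 high clones, 1 clone lay far from the others at 3 of the named genes. *Sccpdh* was at 243 CPM in S37Y A5 and at 141 CPM in the next clone, and *Peg10* at 355 CPM in S37Y A5 and 206 CPM in the next. *Lefty1* was at 79.9 CPM in T41I A6 and 40.6 CPM in the next. In all, 86 measures were checked in this way, and chance alone would give about 1 in 20.

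The 5 codon 37 clones and the 4 codon 41 clones differed from each other at *Mycn* (log2 difference −0.87), *Dppa3* (−1.66) and *Tcf7l1* (−0.75), in a comparison added after the data were seen (edgeR adjusted p = 0.0294, 0.0474 and 0.0474). The means were 68.7 ± 15.2 and 127 ± 14.7 CPM for *Mycn*, 8.88 ± 4.32 and 29.3 ± 10.1 CPM for *Dppa3*, and 73.7 ± 11.1 and 124 ± 11.4 CPM for *Tcf7l1* (SD, n = 5 and 4).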

How the results depend on the processing

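The 3 medium clones limited the comparison. Of 68 named genes that were called, 22 kept their call in every alternative in which they could be fitted, among them *Cdx1*, *Tbx3*, *Klhl13*, *Enpp3*, *Pou3f1*, *Mycn* and *Peg10*, whereas 36 to 39 kept it without 1 medium clone, 28 with codon 41 clones only and 46 with the mutation as a random block. *Insig1* lost its call in 15 alternatives. The cause was not tested.

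With all 12 clones 481 genes were called, 32 of them on chromosome 6, 449 elsewhere and 39 in the lists. In the same order, without a filter on low counts the numbers were 737, 49, 688 and 68. With limma-voom and the mutation as a random block (correlation 0.203) they were 256, 10, 246 and 24. With codon 41 clones only they were 67, 4, 63 and 8. On thinned counts 21 chromosome 6 genes were called. Settings added after the data were seen gave 196, 11, 185 and 21 without S37A A10 and S37Y A5, and 934, 52 and 882 (57 in the lists) without the T41I clones. Leaving out 1 clone at a time gave 148 (S45F D9) to 886 (T41I A6) genes, 5 (S45F D9) to 53 (T41I A6) on chromosome 6, 142 (S45F C1) to 833 (T41I A6) elsewhere and 16 (S45P G5) to 51 (T41I A6) in the lists. The chromosome 6 count was also 16 without S37A A10, 17 without S37C G12, 21 without S45F C1 or T41A C1 and 13 without S45P G5. RLE gave 480, DESeq2 629 and counts summed per mutation 356 genes, each within 1.5 times.

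Direction turned only in differences near 0. *Ctnnb1* was −0.0059 with counts summed per mutation, −0.03 with codon 37 only and −0.00042 without the T41I clones. *Ldha* was −0.043 per mutation and −0.09 with codon 41 only. Without single clones *Ctnnb1* ran from −0.026 to 0.08, *Ldha* from −0.08 to 0.18 and *Gbx2* from −0.018 to 0.30. Likewise the difference in mitochondrial share (0.0271 points) ran from −0.0853 to 0.169, that in detected genes (787) from 516 to 1125, past the threshold without S37F G1 (904), that in the TMM factor from −0.0209 to −0.0105, past it without S37C G12 (−0.0186), and that in the share of the top gene (−0.346) from −0.403 to −0.281, no longer past it without S45F D9 (−0.354) or S45P G5 (−0.281).

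Along the dose 1341 genes were called, 547 (without the first untreated library) to 1412 with 1 library left out, 851 without the second untreated library, and 1186 with the replicate number as a block. Same-numbered libraries did not deviate together (correlations −0.125 to 0.112), so the numbers were not taken as pairs. No paired analysis was possible for the clones because the numbers in their labels count the clones of 1 mutation and tie no high clone to a medium clone.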
